A study of Mus musculus with 24 samples.

Results

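The 8 enzymes of heme biosynthesis that were examined, Alas2, Alas1, Alad, Uros, Urod, Cpox, Ppox and Fech, were measured in splenic dendritic cells (DCs) of young mice. They were chosen by gene symbol, from probe sets that carried that symbol alone, and made up 8 of 12393 genes and 14 of 22626 probe sets. Where an enzyme had more than 1 probe set, the one with the highest mean signal stands for it, and the others are given separately. The study asked whether DCs of pups born to asthmatic mothers differ from DCs of normal pups, before and after a first contact with allergen.

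RNA from CD11c+ cells, held back on magnetic beads from spleens of BALB/c pups at day 14 of life, was hybridized to 24 Affymetrix arrays. The asthma-at-risk pups had mothers that were sensitized with ovalbumin (OVA) in alum as pups and exposed to OVA aerosols before mating, and the normal pups had control mothers. Allergen stimulated pups had received 1 intraperitoneal injection of 5 µg of OVA with 1 mg of alum, on day 3 by the sample labels and on day 4 by the methods, and naïve pups had received none. Set 1 held 4 stimulated at-risk, 4 stimulated normal, 4 naïve at-risk and 3 naïve normal arrays. Set 2, which the methods call NuGEN amplified, held 5 stimulated at-risk and 4 stimulated normal arrays. By the methods, 1 further array of each set was excluded, and over 95% of the cells carried both CD11c and MHC class II. Arrays are called by their labels, AF76 to AF91 in Set 1 and AF118 to AF127 in Set 2. The sample titles name no set. Arrays were assigned to the sets from their AF numbers and the set sizes in the methods. The methods call the arrays of a group biological replicates. How many pups stand behind each array was left unstated in the sources read here.

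Heme is made in steps that start in the mitochondrion, pass through the cytosol and end in the mitochondrion again. The first step, which joins glycine and succinyl-CoA, is carried out by either of 2 isoforms: ALAS1, present in nearly every cell and held in check by heme, and ALAS2, found in red cell precursors, where heme is made in bulk for hemoglobin. The later enzymes are shared by all cells, and red cell precursors raise them as they mature. The step between ALAD and UROS was not analysed here.

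The windows upstream of 3 enzymes are shown because they are the erythroid isoform of the first step, a shared later step and the housekeeping isoform, which the comparisons that follow set apart. The Cpox window was chosen after its values had been seen. Each line holds the 250 bases before a start site, 5′ to 3′ in the direction of the gene, from RefSeq on GRCm38.p6. Alas2 lies on the plus strand at chrX:150547167-150547416, Cpox on the plus strand at chr16:58669958-58670207 and Alas1 on the minus strand at chr9:106247955-106248204. Capitals mark GATAA or its reverse complement TTATC, a form of the site bound by GATA factors. They also mark CACCC or its reverse complement GGGTG, the core bound by KLF factors. Other forms of the GATA site were neither searched nor marked.
Alas2: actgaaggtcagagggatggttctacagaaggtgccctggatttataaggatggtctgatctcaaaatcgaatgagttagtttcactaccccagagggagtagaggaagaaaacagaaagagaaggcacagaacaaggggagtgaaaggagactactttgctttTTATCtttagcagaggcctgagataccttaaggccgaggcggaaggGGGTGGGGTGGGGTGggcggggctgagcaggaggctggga
Cpox: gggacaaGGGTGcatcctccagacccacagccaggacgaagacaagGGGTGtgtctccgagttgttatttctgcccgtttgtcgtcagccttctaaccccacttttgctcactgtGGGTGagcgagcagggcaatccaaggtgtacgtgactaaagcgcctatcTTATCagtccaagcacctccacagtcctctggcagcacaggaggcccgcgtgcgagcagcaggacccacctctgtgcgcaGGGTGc
Alas1: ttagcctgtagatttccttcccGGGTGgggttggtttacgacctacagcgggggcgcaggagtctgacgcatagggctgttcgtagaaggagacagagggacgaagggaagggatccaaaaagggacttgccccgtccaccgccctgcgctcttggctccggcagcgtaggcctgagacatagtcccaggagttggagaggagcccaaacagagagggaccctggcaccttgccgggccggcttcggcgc

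The Alas2 window held 1 GATAA core, starting 86 bases before the start site. It also held 3 CACCC cores side by side, starting 40, 35 and 30 bases before that site. The Cpox window held 1 GATAA core, also 86 bases before its start, and 4 CACCC cores at 243, 204, 135 and 6 bases. The Alas1 window held no GATAA core and 1 CACCC core, at 228 bases. Both cores were read on both strands, and no match overlapped another. In all, 10 windows of 7 of the 8 enzymes were read, and Fech was left out of the search. A GATAA core stood in 3 of the 10 windows, the third being an alternative Uros start. A CACCC core stood in 5 of the 10. Over all 32851 windows of this length, 22.6% held a GATAA core and 52% a CACCC core. These letters are a description of the windows and say nothing about binding in these cells.

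The array medians lay between 272.1 and 297.8 on the linear scale. Of 12 DC markers measured, 0 were called between at-risk and normal pups in naïve DCs (0.347% of all genes) or in stimulated DCs of both sets (2.24%). With OVA in normal pups 2 of the 12, Zbtb46 and Xcr1, were called higher, where 5.45% of all genes were. The summed signal of the 12 markers lay between 94174 and 105501 on all 24 arrays. Array AF123, a stimulated at-risk array of Set 2, stood apart in the enzymes, with the highest signal of its set's 9 arrays in all 8, and it also had the highest summed signal of the 23 erythroid markers measured, 69757, against 22327 to 47637 on the other arrays of Set 2.

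The first comparison asked how the injection of OVA with alum changed the enzymes, in at-risk and in normal pups of Set 1. Every enzyme but the housekeeping isoform Alas1 had a higher signal in stimulated than in naïve DCs, and Alad, which condenses the product of the first step into a pyrrole, had the largest difference. In at-risk pups 7 of 8 enzymes were called higher, where 4.98% of all genes were. In normal pups 6 of 8 were called higher, where 5.45% of all genes were. A gene was called where the limma p, adjusted by Benjamini-Hochberg over all 22626 probe sets, was 0.05 or less and the log2 fold change was 0.32 or more in size. The fold changes of the 2 comparisons share no array. Their p came from fits of the same 15 arrays of Set 1, with a shared variance, so the calls are not independent. The median log2 fold change over the 8 enzymes was 0.75 in at-risk pups and 0.49 in normal pups, beside -0.011 and -0.003 over all genes.

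**Figure D1:**
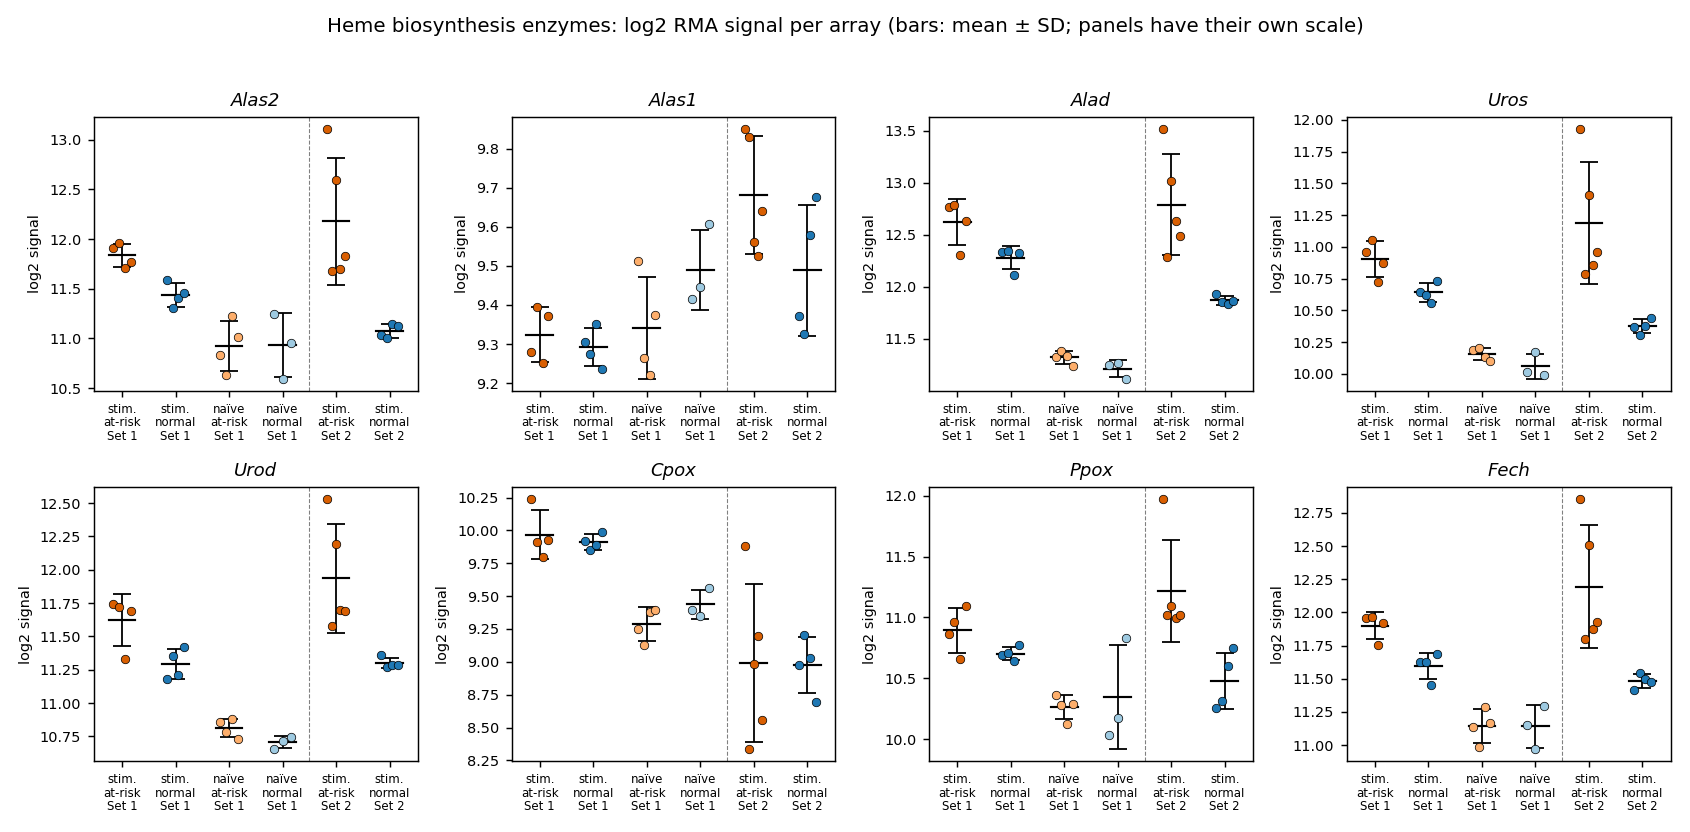
Log2 RMA signal of the 8 enzymes on each of the 24 arrays (points), by group, with the mean and SD (bars). Left of the dashed line are the Set 1 groups and right of it the Set 2 groups. The Set 1 group means were higher in stimulated than in naïve pups for all but Alas1, and AF123 lay above every other array of Set 2 in each panel. Cpox averaged less in both groups of Set 2 than in naïve arrays of Set 1. Set 2 held no naïve arrays and was amplified and preprocessed apart from Set 1, so this difference in level cannot be told apart from set.

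The isoforms of the first step behaved differently. Alas2 had log2 signals of 11.91, 11.96, 11.71 and 11.77 in stimulated at-risk arrays, against 10.83, 10.63, 11.22 and 11.02 in naïve at-risk arrays. In normal pups Alas2 had 11.58, 11.31, 11.40 and 11.46 in stimulated arrays, against 11.25, 10.60 and 10.96 in naïve arrays. All stimulated values lay above all naïve values in both kinds of pups. The log2 fold change of Alas2 was 0.91 ± 0.14 (SE, limma adjusted p = 0.000392), or 1.88-fold, in at-risk pups and 0.50 ± 0.15 (limma adjusted p = 0.0323), or 1.42-fold, in normal pups. The call in normal pups was lost when AF77, AF79, AF84, AF86 or AF87 was left out, with log2 fold changes between 0.33 and 0.66 over all arrays left out in turn.

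Alas1 had log2 signals of 9.28, 9.40, 9.25 and 9.37 in stimulated at-risk arrays, against 9.51, 9.26, 9.22 and 9.37 in naïve at-risk arrays. These values overlapped fully, with a log2 fold change of -0.017 (95% interval -0.17 to 0.13, limma adjusted p = 0.94). In normal pups Alas1 had 9.30, 9.28, 9.35 and 9.24 in stimulated arrays, against 9.42, 9.44 and 9.61 in naïve arrays. Here the stimulated values all lay below the naïve ones, but the log2 fold change of -0.20 (95% interval -0.36 to -0.035) did not pass the test (limma adjusted p = 0.102). Groups without overlap in this direction were found for 11.1% of all genes.

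The cytosolic enzymes were also called higher in both kinds of pups. Alad had log2 signals of 12.76, 12.79, 12.30 and 12.64 in stimulated at-risk arrays, against 11.33, 11.39, 11.34 and 11.24 in naïve at-risk arrays. Its log2 fold change of 1.30 ± 0.10 (limma adjusted p = 6.14e-07) amounted to 2.46-fold. In normal pups Alad had 12.34, 12.34, 12.11 and 12.33 in stimulated arrays, against 11.25, 11.27 and 11.12 in naïve arrays, a log2 fold change of 1.07 ± 0.10 (limma adjusted p = 8.56e-06) or 2.1-fold. In both kinds of pups the lowest stimulated value lay above the highest naïve value by more than the range within any of these groups. Uros, which closes the ring of the porphyrin, had log2 fold changes of 0.75 ± 0.07 in at-risk pups (limma adjusted p = 8.21e-06) and 0.58 ± 0.08 in normal pups (limma adjusted p = 0.000155). Urod, which removes carboxyl groups from that ring, had 0.81 ± 0.09 in at-risk pups (limma adjusted p = 2.24e-05) and 0.59 ± 0.09 in normal pups (limma adjusted p = 0.000668).

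The mitochondrial enzymes that finish the pathway were called higher too, apart from Ppox in normal pups, which was higher but not called. Cpox, which oxidizes coproporphyrinogen, averaged 9.97 ± 0.19 in stimulated and 9.29 ± 0.13 in naïve at-risk arrays (SD, n = 4 each). In normal pups it averaged 9.91 ± 0.06 in 4 stimulated arrays and 9.44 ± 0.11 in 3 naïve arrays. The log2 fold changes of Cpox were 0.68 in at-risk pups (limma adjusted p = 0.000152) and 0.48 in normal pups (limma adjusted p = 0.00429). Fech, the enzyme that inserts iron into protoporphyrin, had log2 fold changes of 0.76 ± 0.08 (limma adjusted p = 3.34e-05) in at-risk and 0.46 ± 0.09 (limma adjusted p = 0.00351) in normal pups. Ppox, which acts just before it, was called in at-risk pups, at 0.63 ± 0.14 (limma adjusted p = 0.00772). In normal pups its value of 0.36 ± 0.15 did not pass (limma adjusted p = 0.131), and naïve array AF79 at 10.83 lay above all 4 stimulated values of 10.64 to 10.78. Without AF79 the log2 fold change of Ppox in normal pups was 0.60 and passed.

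The groups did not overlap for 7 of 8 enzymes in at-risk pups, all but Alas1, where 9.87% of all genes were higher without overlap. In normal pups 6 of 8 enzymes were higher without overlap, all but Alas1 and Ppox, where 12% of all genes were. Whether the OVA response differed between at-risk and normal pups was tested as an interaction. None of 8 enzymes was called (0.0646% of all genes were), and 1, Fech, had an unadjusted limma p under 0.05, with a difference of 0.30 (95% interval 0.033 to 0.57). For Alas2 the difference was 0.41 (95% interval -0.016 to 0.84), and the other differences ran between 0.17 and 0.28.

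**Figure D2:**
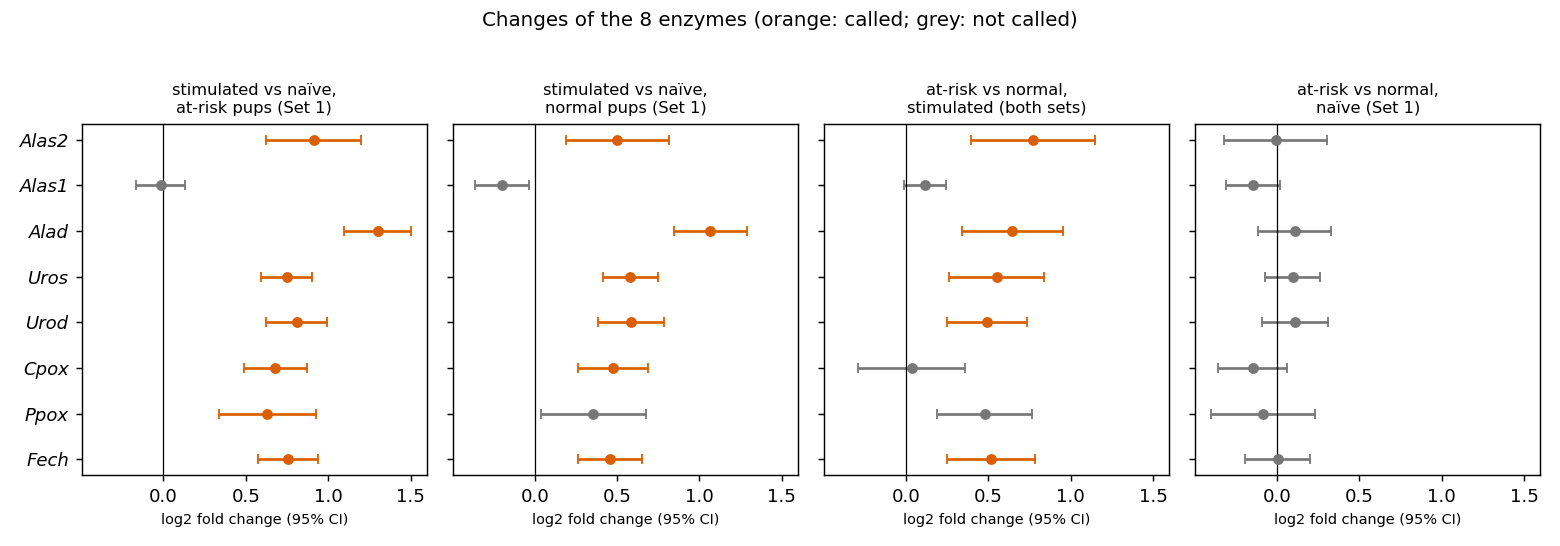
Log2 fold change of the 8 enzymes (points) with 95% intervals (bars) in 4 comparisons. Orange points were called and grey points were not. With OVA and alum 7 and 6 enzymes were called higher in at-risk and normal pups. In stimulated at-risk against stimulated normal arrays 5 were called higher, and in naïve arrays none was called. The comparisons share Set 1 arrays.

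The second comparison asked whether stimulated DCs of at-risk and normal pups differed, over the 9 at-risk and 8 normal arrays of both sets with set as a term. Alas2, Alad, Uros, Urod and Fech were called higher in at-risk pups, 5 of 8 enzymes where 1.75% of all genes were called higher. Ppox, Alas1 and Cpox were not called, and none was called lower, where 0.492% of all genes were. The median log2 fold change over the 8 was 0.50, beside 0.002 over all genes. Uros stands in a table of genes that the study picked from these same stimulated samples, so its call is not independent evidence. These stimulated arrays of Set 1 also entered the OVA comparisons.

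In Set 1, Alas2 had 11.91, 11.96, 11.71 and 11.77 in stimulated at-risk arrays, against 11.58, 11.31, 11.40 and 11.46 in stimulated normal arrays. In Set 2 it had 13.10, 11.68, 12.60, 11.70 and 11.83 in stimulated at-risk arrays, against 11.04, 11.003, 11.14 and 11.12 in stimulated normal arrays. Every at-risk array lay above every normal array of its set, and AF123 and AF125, at 13.10 and 12.60, stood above the other 3 at-risk arrays of Set 2. The log2 fold change was 0.77 ± 0.18 (limma adjusted p = 0.0311), or 1.71-fold. Alas1 averaged 9.32 ± 0.07 in stimulated at-risk and 9.29 ± 0.05 in stimulated normal arrays of Set 1 (SD, n = 4 each), and 9.68 ± 0.15 (n = 5) and 9.49 ± 0.17 (n = 4) in those of Set 2. Its groups overlapped in both sets, with a log2 fold change of 0.12 (95% interval -0.012 to 0.25, limma adjusted p = 0.349).

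Alad had the smallest adjusted p. In Set 1 it had 12.76, 12.79, 12.30 and 12.64 in stimulated at-risk arrays, against 12.34, 12.34, 12.11 and 12.33 in stimulated normal arrays, and AF90 at 12.30 fell among the normal ones. In Set 2 it had 13.51, 12.29, 13.02, 12.63 and 12.49 in stimulated at-risk arrays, against 11.93, 11.86, 11.83 and 11.86 in stimulated normal arrays, with no overlap. Its log2 fold change was 0.65 ± 0.15 (limma adjusted p = 0.0282), or 1.56-fold. Uros had 0.55 ± 0.14 (limma adjusted p = 0.0435), Urod 0.49 ± 0.12 (limma adjusted p = 0.0336) and Fech 0.52 ± 0.13 (limma adjusted p = 0.04).

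Cpox gave the smallest difference of all enzymes. It averaged 9.97 ± 0.19 in stimulated at-risk and 9.91 ± 0.06 in stimulated normal arrays of Set 1 (SD, n = 4 each). In Set 2 its signals were 9.88, 8.34, 8.98, 9.20 and 8.56 in at-risk arrays, against 8.98, 9.20, 9.03 and 8.70 in normal arrays. Apart from AF123 the at-risk values lay within or below the normal ones, and the log2 fold change was 0.036 (95% interval -0.29 to 0.36, limma adjusted p = 0.925). Ppox, at 0.48 ± 0.14, missed the threshold (limma adjusted p = 0.0725), with all at-risk arrays of Set 2 (10.99 to 11.97) above the normal ones (10.26 to 10.74) and overlap in Set 1.

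All 8 log2 fold changes were above 0 in each set, and 7 were larger in Set 2. In Set 1 alone, where 0.105% of all genes were called higher, 0 of 8 enzymes were called by limma and 5 had an unadjusted p under 0.05, with log2 fold changes between 0.033 for Alas1 and 0.40 for Alas2. In Set 2 alone, where 3.28% were called higher, 1 enzyme was, Alad at 0.92 ± 0.21 (limma adjusted p = 0.0376), while Alas2 at 1.10 ± 0.28 lay just outside (limma adjusted p = 0.0501). At-risk and normal arrays did not overlap for 6 of 8 enzymes in Set 2 (7.08% of all genes) and for Alas2 and Fech in Set 1 (2.92% of all genes). The difference between the sets was called for 0 of 8 enzymes, where 2.15% of all genes were called, and 4 had an unadjusted limma p under 0.05.

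The 5 calls of both sets rested on several arrays. None was left without AF89 or without any 1 of the 4 normal arrays of Set 2, AF118, AF119, AF120 and AF121, 1 was left without AF125, 2 without AF88 and 3 without AF85 or AF86, while 6 were called without AF123 or AF90. In all of these fits the log2 fold change of Alas2 stayed between 0.64 and 0.82 and that of Alad between 0.54 and 0.71. In Set 2 alone the count of 1 became 0 without AF118, AF119, AF120, AF121, AF125 or AF126, 4 without AF123 and 3 without AF124, and in Set 1 alone 2, Alad and Urod, without AF90.

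In naïve DCs the third comparison set at-risk against normal pups with no allergen given. None of 8 enzymes was called by limma, where 0.347% of all genes were called in either direction, and none had an unadjusted p under 0.05. Alas2 averaged 10.92 ± 0.25 in 4 at-risk arrays and 10.94 ± 0.33 in 3 normal arrays, a log2 fold change of -0.0091 (95% interval -0.32 to 0.30). The other 7 ran between -0.15, for Cpox and Alas1, and 0.11, for Alad and Urod, and the groups overlapped in all 8, where 4.69% of all genes were higher and 5.8% lower without overlap. With 3 and 4 arrays these intervals reach past the fold threshold for Cpox, Ppox and Alad.

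The contrast between the isoforms was then put on 1 value for each array, log2 Alas2 minus log2 Alas1. Its level has no meaning of its own, since probe sets differ in brightness, and only its change between groups was read. It was 2.63, 2.56, 2.46 and 2.40 in stimulated at-risk arrays of Set 1, against 2.28, 2.03, 2.05 and 2.22 in stimulated normal arrays. In Set 2 it was 3.25, 1.85, 3.03, 2.17 and 2.19 in stimulated at-risk arrays, against 1.67, 1.68, 1.56 and 1.45 in stimulated normal arrays. In naïve arrays it was 1.32, 1.37, 2.00 and 1.64 in at-risk pups, against 1.83, 1.15 and 1.35 in normal pups. The stimulated at-risk arrays of each set thus lay above the stimulated normal arrays, and both stimulated groups of Set 1 above their naïve ones, while the naïve groups overlapped.

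Over both sets the difference between stimulated at-risk and normal arrays was 0.64 (exact two-sided permutation test within set, p = 0.000567, adjusted p = 0.0034 over 6 comparisons). Within Set 1 it was 0.37 (exact p = 0.0286, adjusted p = 0.0343) and within Set 2 it was 0.91 (exact p = 0.0159, adjusted p = 0.0343). Stimulated minus naïve gave 0.93 in at-risk pups and 0.70 in normal pups (exact p = 0.0286 in each, adjusted p = 0.0343). For these 2 and for Set 1 a p of 0.0286 is the smallest the arrays allow. The naïve difference was 0.14 (exact p = 0.6).

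**Figure D3:**
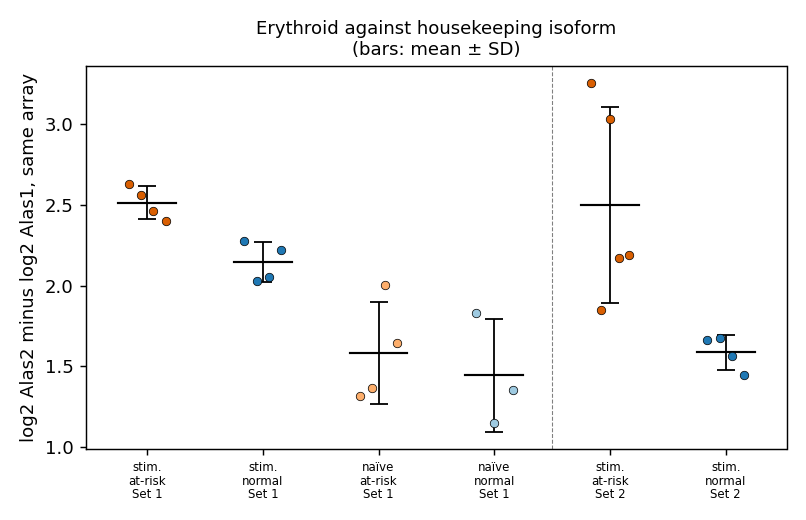
Log2 Alas2 minus log2 Alas1 within each of the 24 arrays (points) by group, with mean and SD (bars). Stimulated at-risk arrays (2.40 to 2.63 in Set 1, 1.85 to 3.25 in Set 2) lay above stimulated normal arrays of the same set (2.03 to 2.28 and 1.45 to 1.68).

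The 6 other probe sets of the enzymes gave these values. The other probe set of Alas1 (1455282_x_at, a class whose probes may also bind other transcripts) was not called in any comparison, with log2 fold changes of -0.12 for stimulated against naïve at-risk pups, -0.31 for stimulated against naïve normal pups and 0.036 for stimulated at-risk against stimulated normal pups. The dim second probe set of Cpox (1422493_at, at the 34.6 percentile of mean signal) was called higher with OVA in at-risk pups, at 0.89 (limma adjusted p = 0.000658), and in normal pups, at 0.48 (limma adjusted p = 0.0468). Against stimulated normal pups its value in stimulated at-risk pups was 0.31 (limma adjusted p = 0.362), larger than the 0.036 of the brighter probe set and likewise not called.

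Of the 3 other Fech probe sets, 1418698_a_at and 1449181_at were called higher with OVA in both kinds of pups, with log2 fold changes between 0.48 and 0.98. Between stimulated at-risk and normal pups they had 0.40 (limma adjusted p = 0.082) and 0.43 (limma adjusted p = 0.273), so that only the brightest Fech probe set, 1418699_s_at, was called there. The dim probe set 1427696_at, at the 20.7 percentile, was called in no comparison and ran the other way in Set 2, at -0.32 (limma adjusted p = 0.2). Ppox probe set 1448065_at was called with OVA in at-risk pups, at 0.44 (limma adjusted p = 0.0111), and not between stimulated at-risk and normal pups, at 0.28 (limma adjusted p = 0.205).

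Genes that bring substrates to the pathway were read beside the enzymes, from a list of 13 measured genes for iron and porphyrin supply. With OVA 6 of 13 were called higher in at-risk pups (4.98% of all genes) and 5 of 13 in normal pups (5.45% of all genes), with none lower and list medians of 0.31 and 0.25. Slc6a9, a glycine transporter, had 1.90 in at-risk pups (limma adjusted p = 2.36e-06) and 1.252 in normal pups (limma adjusted p = 0.000202). Abcb10, a mitochondrial transporter that red cell precursors need to make heme, had 0.96 in at-risk pups (limma adjusted p = 9.46e-06) and 1.14 in normal pups (limma adjusted p = 3.96e-06). Slc25a37, the mitochondrial iron importer mitoferrin, had 0.95 in at-risk pups (limma adjusted p = 4.96e-05) and 0.67 in normal pups (limma adjusted p = 0.00159). Between stimulated at-risk and normal pups 2 of 13 were called higher, where 1.75% of all genes were, Slc6a9 at 1.04 (limma adjusted p = 0.0118) and Slc11a2, an iron transporter, at 0.33 (limma adjusted p = 0.0482). The transferrin receptor Tfrc was named after its values were seen. With OVA it had 0.28 in at-risk pups (limma adjusted p = 0.00625) and 0.31 in normal pups (limma adjusted p = 0.0045), and missed the call by the fold threshold alone.

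Of 12 genes for breaking down, exporting and sensing heme, 0 were called higher in any of the comparisons. With OVA 3 were called lower in normal pups, where 6.33% of all genes were: Hmox1, which opens the heme ring, at -0.51 (limma adjusted p = 0.00317), Blvra, which acts on its product, at -0.37 (limma adjusted p = 0.00304), and the heme exporter Flvcr1 at -0.65 (limma adjusted p = 0.0376). In at-risk pups none of the 12 was called with OVA, where 3.4% of all genes were called lower. There Blvra, at -0.297 (limma adjusted p = 0.0105), missed only the fold threshold. Hmox1 had -0.299 (limma adjusted p = 0.0575) and Flvcr1 -0.061 (limma adjusted p = 0.911). The OVA response was called different between at-risk and normal pups for 0 of the 12, where 0.0646% of all genes were called. In Set 2 alone, where 2.34% of all genes were called lower, Hebp1, a heme-binding protein, was called lower in stimulated at-risk than in stimulated normal pups, at -0.39 (limma adjusted p = 0.0454), and the maternal difference of Hmox1 was lower in Set 2 than in Set 1 by a log2 difference of -0.77 (limma adjusted p = 0.0159). Of 5 genes of iron storage and regulation, the iron exporter Slc40a1 was called lower in normal pups with OVA, at -0.37 (limma adjusted p = 0.00184), and no other gene of that list in any comparison.

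Since Alas2 is an enzyme of red cell precursors, the markers of those cells are given beside it. Of 23 erythroid markers measured, 21 were called higher with OVA in at-risk pups (4.98% of all genes) and 21 in normal pups (5.45%). Between stimulated at-risk and normal pups 16 of the 23 markers were called higher, where 1.75% of all genes were. Their summed signal ran between 32678 and 42562 in stimulated at-risk and between 27505 and 32561 in stimulated normal arrays of Set 1, and in Set 2 between 29435 and 69757 in stimulated at-risk and between 22327 and 22624 in stimulated normal arrays. In naïve arrays it lay between 14416 and 17345 in at-risk and between 14808 and 16766 in normal pups. No naïve difference was called in this list, as in the enzymes, where 0.347% of all genes were called. Dmtn (dematin), called between stimulated at-risk and normal pups, is named in a gene network that the study drew from these same stimulated samples. Its call is therefore not independent evidence. In bulk RNA, fewer cells of a type and less RNA per cell cannot be told apart.

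Of 6 globins measured, 0 were called in any comparison. Hbb-b1, Hbb-bs and Hbb-bt had no probe set that carried their symbol alone and were not read. Of the 6, 4, Hba-a1, Hbb-bh1, Hbb-y and Hba-x, stayed at or below a log2 signal of 4.95 on all arrays, under the lower quartile of every array. Hba-a2 lay between 11.60 and 12.54 and Hbb-b2 between 12.32 and 12.66, stimulated or not. All 9 platelet markers measured were called higher with OVA in at-risk (4.98% of all genes) and in normal pups (5.45%). Between stimulated at-risk and normal pups 8 of 9 platelet markers were called higher (1.75% of all genes). Their median log2 fold change with OVA was 3.83 in at-risk and 3.52 in normal pups, beside 1.85 and 1.46 for the erythroid markers. The difference between the sets was called for 5 of 9 platelet and 0 of 23 erythroid markers, where 2.15% of all genes were called. The platelet marker Alox12 is named in a gene network that the study drew from these same stimulated samples, so its call there is not independent evidence.

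Markers of other cells were also called. Of all genes, 4.98% were called higher and 3.4% lower with OVA in at-risk pups, and 5.45% and 6.33% in normal pups. Between stimulated at-risk and normal pups, 1.75% were called higher over both sets. In Set 2 alone 3.28% were called higher and 2.34% lower. T cell markers were lower with OVA, 4 of 5 in at-risk and 5 of 5 in normal pups, and 4 of 5 were lower in stimulated at-risk than in stimulated normal pups of Set 2. Of 8 macrophage markers, 3 in at-risk and 4 in normal pups were lower with OVA, and 3 were lower in stimulated at-risk than in stimulated normal pups of Set 2. Of 7 proliferation genes, 5 in at-risk and 3 in normal pups were higher with OVA. Of 5 B cell markers, 2 were higher in stimulated at-risk than in stimulated normal pups of Set 2. Of 7 neutrophil markers, 2 were higher in at-risk pups with OVA, 1 was higher and 4 were lower in normal pups with OVA, and 2 were higher between stimulated at-risk and normal pups of both sets. Of 6 endothelial markers, 2 were higher and 1 lower in at-risk pups with OVA, 1 was higher and 1 lower in normal pups with OVA, and 2 were higher between stimulated at-risk and normal pups of both sets. Their part in the values of the enzymes was not tested.

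Over the 24 arrays, with the mean of each set taken away, the log2 signal of the enzymes followed the mean log2 signal of the 23 erythroid markers to different degrees. Pearson's r was 0.985 for Alad, 0.969 for Urod, 0.961 for Fech, 0.953 for Uros, 0.918 for Alas2, 0.861 for Ppox, 0.744 for Cpox and 0.072 for Alas1. With the mean of each group taken away, r was 0.963 for Fech, 0.91 for Alas2 and 0.256 for Alas1. The arrays share groups, cells and labelling, and these values are a description. With the mean log2 signal of the erythroid markers and globins as a covariate, 0 of 8 enzymes were called in any comparison. Calls over all probe sets were nearly all lost too. They went from 391 to 0 between stimulated at-risk and normal pups of both sets. With OVA they went from 1782 to 0 in at-risk and from 2599 to 3 in normal pups. The log2 fold change between stimulated at-risk and normal pups with this covariate was -0.016 for Alas2, -0.0006 for Alad and 0.0042 for Urod. The mean log2 signal of the 23 markers itself separated the groups compared here. In Set 1 it was 9.544 to 10.08 in stimulated at-risk and 9.20 to 9.537 in stimulated normal arrays. Naïve arrays had 7.86 to 8.17 in at-risk and 7.90 to 8.27 in normal pups. In Set 2 it was 9.38 to 10.97 in stimulated at-risk and 8.70 to 8.81 in stimulated normal arrays. The covariate thus followed the groups, and this fit cannot tell the 2 apart.

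**Figure D4:**
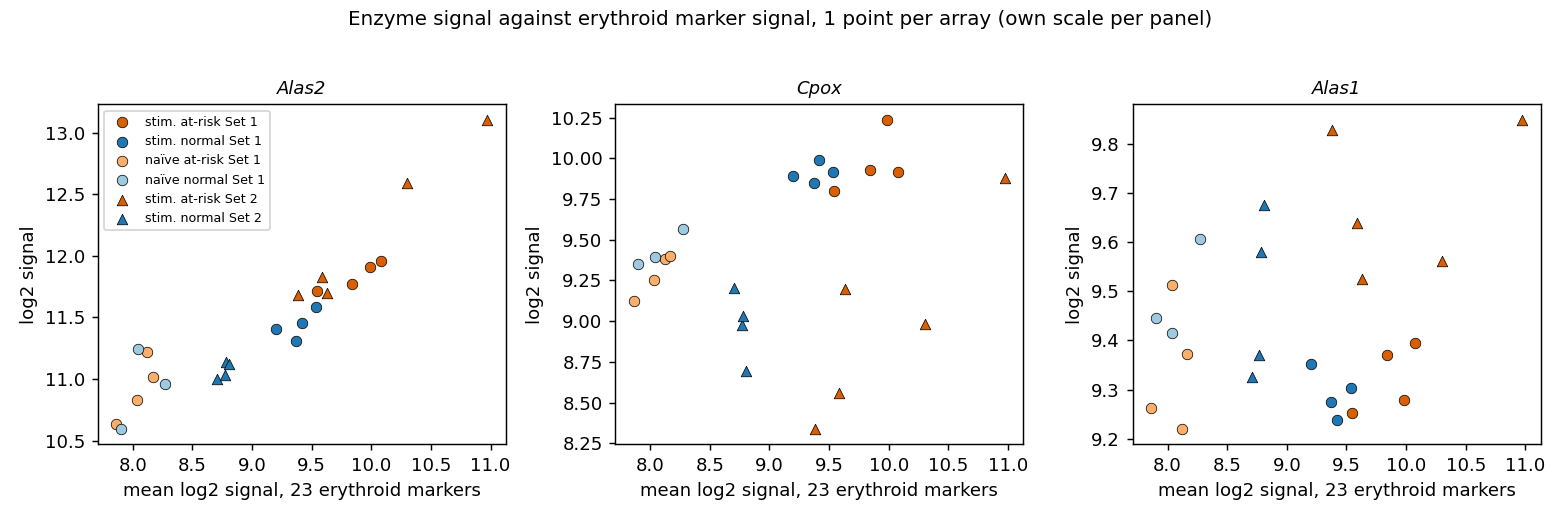
Log2 signal of Alas2, Cpox and Alas1 against the mean log2 signal of 23 erythroid markers, 1 point for each of the 24 arrays, circles for Set 1 and triangles for Set 2. Alas2 rose along the markers in both sets (r = 0.918 after set means were removed), Cpox lay lower in Set 2 at a given marker level (r = 0.744), and Alas1 showed little relation (r = 0.072).

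The genes whose signal was most like that of Alas2 were sought over the same 24 arrays, by Pearson's r after the set means were removed. Fech came first of all genes, at 0.973, followed by Trim10, an erythroid gene, at 0.961, Cdr2 at 0.96, Prxl2a at 0.955 and Dhrs11 at 0.954. Sptb, the spectrin of the red cell skeleton, had 0.948, and Abcb4, Smox, Slc22a4 and Pawr had 0.943 to 0.945. Among the enzymes Uros followed at rank 14, Urod at 45, Alad at 90, Ppox at 193 and Cpox at 707, while Alas1 stood at rank 3407 with an r of 0.22. With group means removed r was 0.931 for Fech and 0.177 for Alas1.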

How the data were processed

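The values were made by the authors with RMA, which the submitters' processing notes name without a version, and were deposited as an intensity for each probe set on a linear scale. The methods state that the sets were preprocessed separately. Log2 was taken of the deposited intensities with no pseudocount, and 64 control probe sets were left out. Of 22626 probe sets, 20380 had 1 gene symbol in the platform annotation. Models were fitted over all of them in R 4.3.3 with lmFit and eBayes of limma 3.58.1, with the 15 arrays of Set 1 for the naïve and OVA comparisons and 17 stimulated arrays, with set as a term, for the stimulated comparison. The array number limits the precision. Of other genes, the called ones of each list were named, at most 4 by adjusted p, beside genes singled out for their role, and the 10 genes most like Alas2. The enzymes, lists and tests were chosen with earlier results of these data known. The limma fits of the comparisons and the permutation test were checked on simulated data. Python 3.11.15 with matplotlib 3.10.9, pandas 2.3.3 and numpy 2.4.6 served for tables and plots. Alternatives were other array selections, scalings, filters, weights, moderation, covariates and set terms, and each array left out in turn. Methylation arrays were not analysed here.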

Additional observations from a re-analysis of the deposited data

Results flagged for a closer look

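Of 70 groups of 4 or 5 arrays over the 14 probe sets, 6 held an array far from the rest of its group, and chance alone gives about 1 in 20. In stimulated at-risk arrays of Set 2, AF123 stood above the others for both Ppox probe sets, at 11.97 against 10.99 to 11.10 for 1416618_at and at 10.76 against 9.89 to 9.96 for 1448065_at. In stimulated at-risk arrays of Set 1, AF90 stood below the others for Urod, at 11.33 against 11.69 to 11.74, and for the dim Cpox probe set 1422493_at, at 6.68 against 7.03 to 7.10. AF90 also had the lowest summed erythroid marker signal of its group, 32678. In stimulated normal arrays, AF86 of Set 1 stood below the others for Alad, at 12.11 against 12.33 to 12.34, and AF118 of Set 2 above them for Urod, at 11.36 against 11.27 to 11.29. The part of RNA quality or cell content in these arrays was not tested. No enzyme was called for a difference of its maternal effect between the sets, or of its response to OVA between at-risk and normal pups.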

How the results depend on the processing

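With the mean log2 signal of erythroid markers and globins as a covariate, the 7, 6, 5 and 1 enzymes called with OVA in at-risk pups, with OVA in normal pups, between stimulated at-risk and normal pups of both sets and of Set 2 became 0. The sign then turned for some called values: between stimulated at-risk and normal pups to -0.034 for Fech, -0.058 for Uros, -0.0006 for Alad and -0.016 for Alas2. With OVA in at-risk pups the values became -0.52 for Ppox, -0.41, -0.32 and -0.21 for the Fech probe sets 1418698_a_at, 1418699_s_at and 1449181_at, -0.28 and -0.71 for the Cpox probe sets and -0.41 for Alas2. With OVA in normal pups they became -0.33, -0.32 and -0.18 for the same Fech probe sets, -0.22 and -0.68 for the Cpox probe sets and -0.46 for Alas2. Other called values kept their sign with OVA. In at-risk pups they were 0.51 for Alad, 0.36 for Uros, 0.07 for Urod and 0.30 for Ppox probe set 1448065_at. In normal pups they were 0.49 for Alad, 0.30 for Uros and 0.05 for Urod. The limma adjusted p of these OVA values was at least 0.92 in at-risk and 0.497 in normal pups. The covariate followed the groups and cannot be told apart from them in this fit. The cause was not tested. Without the set term 0 of the 5 enzymes were called between stimulated at-risk and normal pups, at adjusted p between 0.0542 and 0.0736. In Set 2 alone the 1 enzyme called became 6 with all 24 arrays in the fit, 6 with array weights, 3 with trend and robust moderation, 3 with 1 probe set per gene, 2 with another quantile normalization and 2 with median centring. In normal pups the 6 called with OVA became 3 with all 24 arrays in the fit. Leaving out each array in turn gave 0 to 6 enzymes between stimulated at-risk and normal pups of both sets, 0 to 2 in Set 1, 0 to 4 in Set 2, 7 in each fit with OVA in at-risk pups and 5 to 6 in normal pups, and 0 in the naïve comparison and in both tests of a difference between effects. The change of Alas2 minus Alas1 then ran between 0.55 and 0.72 over both sets, 0.33 and 0.41 in Set 1, 0.72 and 1.07 in Set 2, 0.84 and 1.07 with OVA in at-risk pups, 0.55 and 0.89 with OVA in normal pups and -0.0082 and 0.33 in naïve pups. With fewer arrays its exact p could not always reach the threshold. Another quantile normalization and the other Alas1 probe set left all 6 on their side of the threshold. Over all 22626 probe sets, with no array left out, the 77 naïve calls became 12 with only the compared groups and 43 with 1 probe set per gene and were more numerous with all arrays, the 391 stimulated calls became 726 with all arrays, 226 without dim probe sets, fewer without the set term and 0 with the covariate, and the 1045 calls of Set 2 between 54 and 3136. The 16 calls of Set 1 ran between 0 and 71, the 404 of the difference between sets between 240 and 2454, the 11 of the interaction between 0 and 42, and the 1782 and 2599 OVA calls of at-risk and normal pups became 1056 and 1493 with 1 probe set per gene and 0 and 3 with the covariate. With each array left out in turn, these counts ran between 44 and 269 in naïve pups, 139 and 578 between stimulated pups of both sets, 2 and 61 in Set 1, 504 and 1546 in Set 2, 204 and 989 for the difference between sets, 1 and 30 for the interaction, 1458 and 1719 with OVA in at-risk pups and 2108 and 3109 with OVA in normal pups. Of 2260 values of single probe sets, 2126 kept their side of the threshold, 79 lost a call, 38 gained one and 17 called values turned their sign, all 17 with the covariate, while 90 values called in neither fit changed sign. A fit of only the compared groups is the same fit for the stimulated comparison of both sets, for Set 2, for the difference between sets and for the interaction. No paired analysis was possible because the labels give no replicate numbers. How signal compares with background on these arrays was not given, so its part in the precision was not tested.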
